A study of Mus musculus with 38 samples.

Results

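A set of 7 genes of mucosal defence was followed across 38 RNA sequencing libraries of mouse intestinal epithelial cells: the complement genes C3, Cfb, C2, C4b, Cfi and Cd55, and Pigr, the receptor that carries secreted antibodies across the epithelium. They were taken by gene symbol from 46078 gene rows, and each of the 7 symbols matched 1 row. The animals were C57BL/6 mice. KO mice (Hk2dIEC in the labels) had lost Hk2, the gene for hexokinase 2, from intestinal epithelium, where the Villin promoter drives the Cre recombinase that removes the floxed allele. WT mice (Hk2 flox/flox) were littermates with the floxed alleles and no deletion, so that both genotypes carried the floxed allele. Libraries were made from untreated animals (day 0; 4 WT, 5 KO) and from animals given 1.5% dextran sodium sulfate (DSS), which injures the colon epithelium, for 3 days (7 WT, 8 KO) or 7 days (7 WT, 7 KO). Per the labels, DSS mice were males of 10 to 12 weeks and both genotypes shared cages. For untreated mice the labels give ages of 9 to 11 or of 86 to 92 weeks, and do not say which applied on day 0. Each library came from 1 animal by its label, and is named here by day, genotype and animal number (d7_WT_356, for example).

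Complement is a cascade of plasma and tissue proteins that marks particles for removal and attracts leukocytes. C3, its central component, is cleaved by enzyme complexes called convertases. One is built from C3 itself and factor B (Cfb), the other from complement C4 (C4b) and C2. Factor I (Cfi) cuts active C3 and C4 fragments into inactive ones, and CD55 (Cd55), a protein anchored in the cell membrane, dissociates convertases on the cell's own surface. The liver makes most plasma complement, and epithelial cells, fibroblasts and macrophages also make components locally. The polymeric immunoglobulin receptor (Pigr) binds polymeric IgA and IgM at the basal side of epithelial cells and releases them into the lumen with a fragment of itself.

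The genes lie on chromosomes 1, 3 and 17 of the GRCm38 build, with coordinates as the count files give them. C4b (ENSMUSG00000073418, chr17:34728380-34743882), Cfb (ENSMUSG00000090231, chr17:34856374-34862518) and C2 (ENSMUSG00000024371, chr17:34862604-34898265) lie close together on the minus strand, and C3 (ENSMUSG00000024164, chr17:57203970-57228136, minus strand) lies elsewhere on the same chromosome. Cd55 (ENSMUSG00000026399, chr1:130439027-130462744, minus strand) and Pigr (ENSMUSG00000026417, chr1:130826684-130852249, plus strand) are on chromosome 1, and Cfi (ENSMUSG00000058952, chr3:129835884-129875332, plus strand) is on chromosome 3. All 7 are annotated as protein coding and have the same ends in GENCODE release M21.

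Promoter sequences were given for 3 of the 7 genes (RefSeq, GRCm38.p6), and the 120 bases before each start are shown. Pigr was the most abundant of the 7 genes and was called in no comparison. C3 and Cd55 were called higher on day 7 than on day 0 in both genotypes, where day and library series coincide, as described below. Against day 3, Cd55 was called higher on day 7 in WT alone and C3 in neither genotype. The stretches shown lie at chr17:57228137-57228256 (minus strand) for C3, chr1:130462745-130462864 (minus strand) for Cd55 and chr1:130826564-130826683 (plus strand) for Pigr. Each line runs 5′ to 3′ on the strand of the gene and ends at the base before the start. Capitals mark matches to the motifs searched.
C3: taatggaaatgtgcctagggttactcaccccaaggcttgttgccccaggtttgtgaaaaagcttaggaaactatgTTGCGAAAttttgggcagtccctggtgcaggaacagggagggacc
Cd55: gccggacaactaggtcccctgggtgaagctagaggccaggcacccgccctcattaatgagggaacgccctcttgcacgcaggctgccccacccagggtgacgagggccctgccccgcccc
Pigr: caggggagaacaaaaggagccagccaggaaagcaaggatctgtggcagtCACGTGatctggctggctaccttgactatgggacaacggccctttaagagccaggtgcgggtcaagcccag
The motifs searched, on both strands and from 250 bases before to 50 bases after the start, were GGGA and TTCC with 2 bases between them (NF-kB), GAAA and GAAA with 2 bases between (interferon response), TTCNNNGAA (STAT), TTGCNNAA (C/EBP) and CACGTG (E-box). C3 held 1 match, the C/EBP letters TTGCGAAA at -45 to -38. Pigr held the E-box letters at -71 to -66 and a STAT match, TTCCTGGAA, at 39 to 47, past the stretch shown. Cd55 held none. Of 32851 promoter windows of this length, 10.797% held the C/EBP letters, 7.15% the E-box, 8.298% the STAT letters, 3.443% the interferon response letters and 1.467% the NF-kB letters. A match is a run of letters and was not tested as a binding site.

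The way reads were counted limits 4 of the 7 genes. Cfb and C2 lie 85 bases apart and share exons with Gm20547, an annotated gene that joins them: 79.5% of the exon bases of Cfb and 42.77% of those of C2 are also exon bases of Gm20547. Gm20547 itself had 0 or 1 counts in each library. The counting command in the file headers sets no option to count reads that overlap more than 1 gene, and it ignores strand. Cfb and C2 were therefore counted mainly on 579 and 2055 exon bases that they do not share, and their levels are understated. C4b shares 35.18% of its 50-base words with C4a, and Cd55 shares 13.33% with its copy Cd55b (Daf2 in the files). Reads were paired, and pairs lying wholly in those stretches could not be assigned to 1 gene. The share of such pairs was not measured. C3 and Cfi shared no such word with another gene, and Pigr shared 0.48%.

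**Figure D1:**
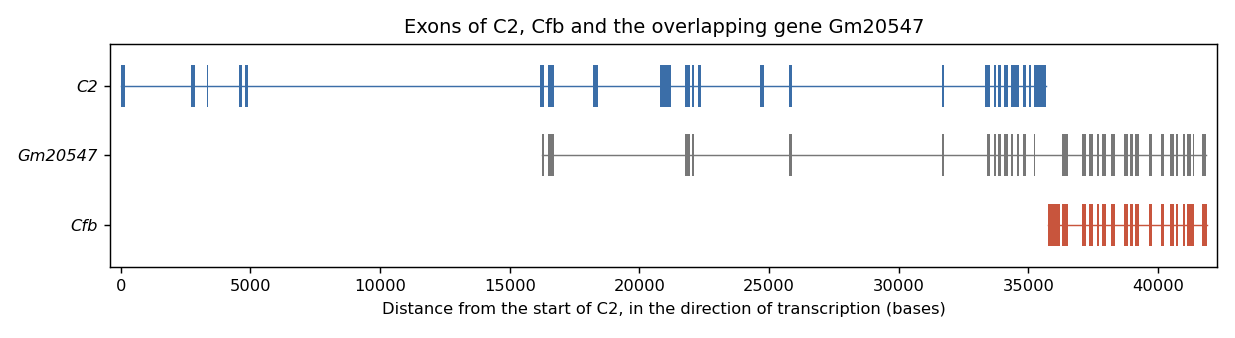
Exons (boxes) of C2, Gm20547 and Cfb, drawn to scale as the distance in bases from the start of C2 in the direction of transcription. Every exon base of Gm20547 (3902 bases) lies in an exon of C2 or Cfb.

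Total counts were 10.5 to 60.6 M (megacounts) per library, with the lowest depth in KO day 0 (10.5 to 17.5 M). Hk2, the targeted gene, had 247 to 440 CPM (a gene's counts per M counts of the library, scaled by TMM) in WT day 0 and 31.2 to 111 CPM in KO day 0. The library labelled d3_KO_345 had 440 CPM of Hk2, above all 7 WT day 3 libraries (99.3 to 224 CPM), whereas 70.9 to 131 CPM were found in the remaining 7 libraries of its group. It goes against its label, and KO day 3 results are given with and without it. The lowest WT day 3 library, d3_WT_346 (99.3 CPM), lay within the range of the remaining 7 KO libraries. Without d3_WT_346 none of the 7 genes was called between KO and WT on day 3 or over both DSS days. On day 7 Hk2 was at 231 to 598 CPM in WT and 56.6 to 260 CPM in KO, where d7_KO_420 had the highest KO level and lay within the WT range. Without d7_KO_420 none of the 7 genes gained or lost a call between KO and WT on day 7 or in KO between days 3 and 7. The gene lists were not refitted without d7_KO_420 or d3_WT_346. The 9 day 0 libraries carry another series prefix in their file names than the 29 later ones, so that day 0 and library series cannot be told apart. All 8 epithelial markers (Epcam, Cdh1, Krt8, Krt18, Krt19, Krt20, Vil1, Cldn7) were counted in every library, with a summed level of 8710 to 19300 CPM. P-values measure the spread between these animals. In bulk samples such as these, fewer cells of a type and less RNA per cell cannot be told apart.

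Pigr was by far the most abundant of the 7 genes. Per kilobase of exon, mean levels in WT day 0 were 994 ± 169 CPM for Pigr, 6.21 ± 1.93 for Cd55, 3.69 ± 0.958 for Cfb, 1.84 ± 1.15 for C3, 0.292 ± 0.132 for C2, 0.117 ± 0.104 for C4b and 0.0789 ± 0.0285 for Cfi (SD, n = 4). The ranges of Cd55 and Cfb overlapped, as did those of Cfb and C3, of C2 and C4b and of C4b and Cfi, whereas Pigr stood apart from all. Divided by the exon bases that it does not share, Cfb had 17.99 CPM per kilobase in WT day 0 and came second, above Cd55 at 6.35, and it came second in all 6 groups on this scale. This scale was chosen after the data were seen. On the first scale the mean of C3 lay below that of Cfb in WT day 0 and above it (3.55) in WT day 7. Their ranges overlapped on both days. In KO the mean of C3 was above that of Cfb on day 0 already (3.13 and 2.89). Day 0 also differs in library series. On day 7, C3 stood at 11.1 ± 9.96 and C4b at 0.593 ± 0.451 CPM per kilobase in WT (SD, n = 7), and at 9.28 ± 4.10 and 2.35 ± 2.43 in KO (SD, n = 7). C2 had 0.562 ± 0.134 in WT and 0.809 ± 0.221 in KO on day 7, and its range overlapped that of C4b in both. Without d7_WT_356 the WT mean of C4b was 0.448 and that of C2 0.548, and on the scale of unshared exon bases C2 (1.06) came before C4b (0.593) in WT, so no order of C2 and C4b is given.

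**Figure D2:**
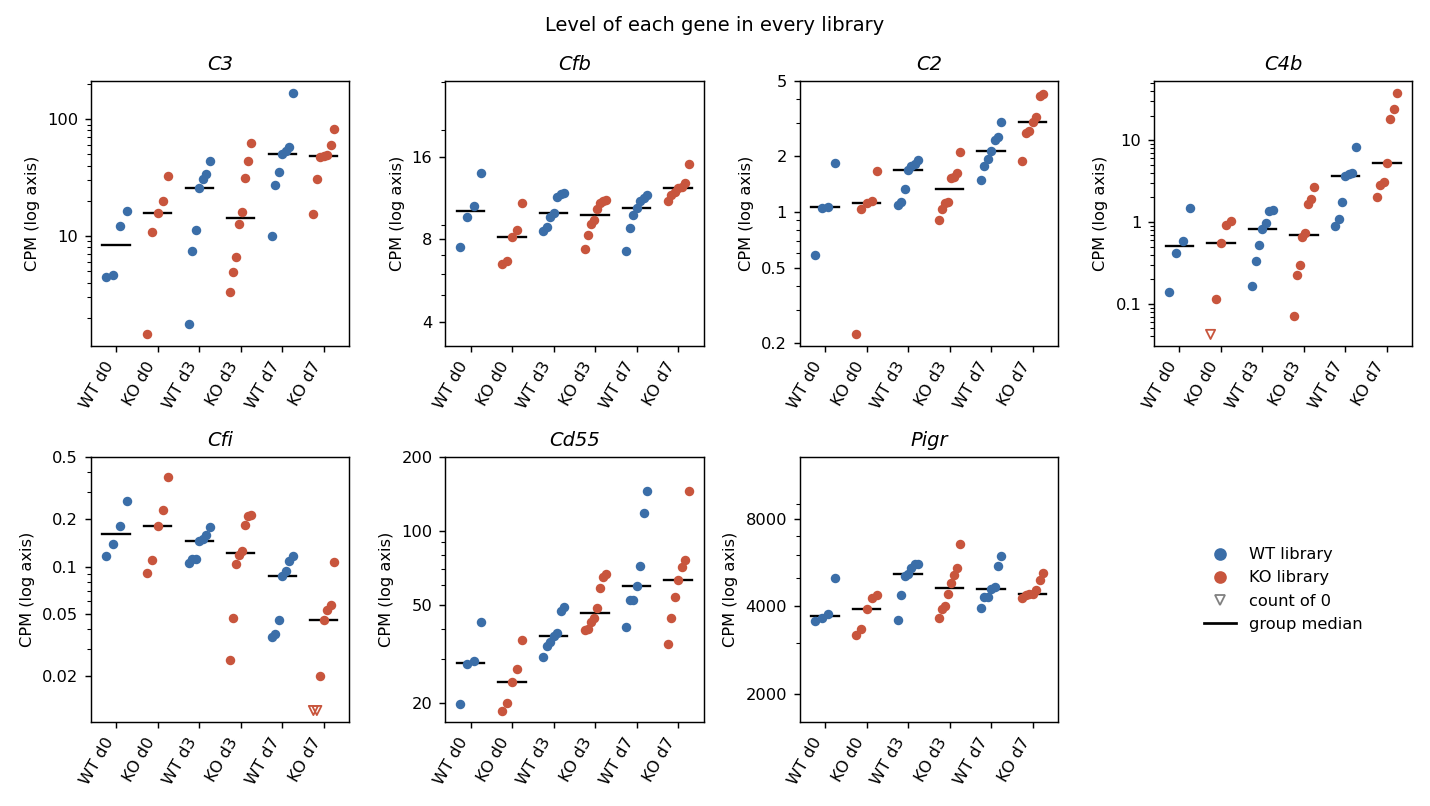
CPM (log axis) of each gene in every library, by genotype and day, with WT in blue and KO in red, points ordered by level within a group, black lines at group medians and open triangles for a count of 0. C4b spans 0 to 37.8 CPM over the libraries, whereas Pigr spans 3188 to 6557 CPM.

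Genotype was compared within each day to ask whether loss of Hk2 from the epithelium goes with other levels of these genes. None of the 7 genes was called between KO and WT on any day at a Benjamini-Hochberg adjusted p under 0.05. The same test called Hk2 itself on day 0 (-2.20, edgeR adjusted p 0.0331) but not on day 3 (-0.27, edgeR adjusted p 0.802) or day 7 (-1.25, edgeR adjusted p 0.291; without d7_KO_420 -1.48, 0.0665), so a missed call there does not show that a gene was unaltered. The day 0 call of Hk2 was lost in 6 of 9 fits with 1 library left out (edgeR adjusted p up to 0.176), and DESeq2 called Hk2 on day 7 (adjusted p 0.0147). On day 0, 0 of 5 genes tested were called by the edgeR quasi-likelihood test, where 5 of 14944 genes were called (0.0335%; 0.0201% with higher and 0.0134% with lower values in KO). On day 3 it was 0 of 6, where 1 of 15461 was called (0.00647%), and on day 7 it was 0 of 6, where 1 of 15584 was called (0.00642%). Over days 3 and 7, with day as a term, 0 of 6 were called, where 2 of 16371 were called (0.0122%). There 470 of 16500 genes were called without d7_KO_420 and 555 of 16497 without d3_WT_346, with 0 of 6 in each fit. At an unadjusted p under 0.05 the counts were 0 of 5, 1 of 6, 3 of 6 and 1 of 6, beside 1563 of 14944 (10.5%), 1218 of 15461 (7.88%), 2017 of 15584 (12.9%) and 3523 of 16371 (21.5%) of all genes tested. DESeq2 called 0 of the 7 genes in each of these comparisons. With so few genes called in all, the counts of called genes are near the background. At an unadjusted p under 0.05 the day 7 count, 3 of 6, lay above the share of all genes (12.9%), and this excess was not tested.

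**Figure D3:**
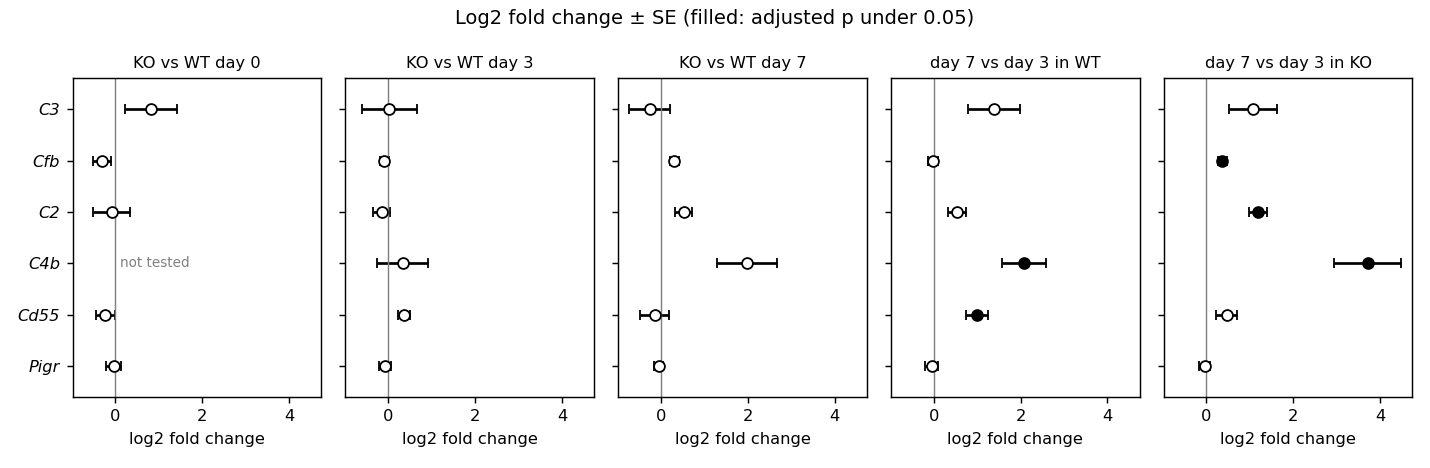
Log2 fold change with its standard error for the 6 genes tested, in 5 comparisons, with filled points for an edgeR adjusted p under 0.05. No point is filled in the genotype comparisons, and C4b has the highest value in both comparisons of day 7 with day 3.

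C3 varied widely between animals of 1 group. On day 0 the WT libraries had 4.44, 4.62, 12.3 and 16.5 CPM and the KO libraries 1.44, 10.9, 15.7, 19.9 and 32.4 CPM. On day 3 the lowest, median and highest were 1.78, 25.7 and 43.7 CPM in WT and 3.31, 14.4 and 63.1 CPM in KO, where the highest was the library labelled d3_KO_345. On day 7 they were 9.99, 49.9 and 167 CPM in WT and 15.4, 48.5 and 82.2 CPM in KO. The ranges of the genotypes overlapped on each day, and the WT maximum of day 7 came from d7_WT_356 alone. The log2 fold change of KO against WT was 0.81 (SE 0.60, edgeR adjusted p 0.651) on day 0, and -0.14 (SE 0.68, edgeR adjusted p 0.933) once a small intestine marker score was added to the fit. Of 13 small intestine markers 8 were tested, and all 8 had positive values on day 0 (median 1.46, beside -0.003 over all genes; 0 called), and their score (mean log2 CPM) was 0.5681 to 1.66 in WT and 1.53 to 4.55 in KO. The day 3 value was 0.031 (SE 0.63, edgeR adjusted p 0.992), and leaving out the library labelled d3_KO_345 gave -0.39 (edgeR adjusted p 0.894). The day 7 value was -0.26 (SE 0.47, edgeR adjusted p 0.832), and it turned to 0.30 without d7_WT_356.

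From day 3 to day 7, C3 did not pass the test in either genotype. The log2 fold change was 1.39 (SE 0.59, edgeR adjusted p 0.117) in WT, where 4 of 7 day 7 libraries lay above all day 3 libraries. In KO it was 1.08 (SE 0.55, edgeR adjusted p 0.198), or 1.5 (edgeR adjusted p 0.0501) when the library labelled d3_KO_345 was left out. Against day 0, C3 was called higher on day 7 in both genotypes. It rose by 2.55 (SE 0.66, edgeR adjusted p 0.00552) in WT and by 1.45 (SE 0.51, edgeR adjusted p 0.0262) in KO. The KO call was lost without d7_KO_368 (edgeR adjusted p 0.0519), d0_KO_24 (0.0589) or d0_KO_53 (0.0556). In WT, day 3 against day 0 was called only without d3_WT_381 (1.37, edgeR adjusted p 0.0379), the library with the least C3 of its group.

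Cfb, the protease of the alternative pathway convertase, was called in no comparison in WT and was called higher on day 7 than on day 3 and day 0 in KO. The WT day 0 libraries had 7.47, 9.66, 10.6 and 13.98 CPM and the KO day 0 libraries 6.51, 6.67, 8.19, 8.64 and 10.9 CPM. On day 3 the lowest, median and highest were 8.54, 10.0 and 11.8 CPM in WT and 7.38, 9.83 and 11.1 CPM in KO. On day 7 they were 7.22, 10.4 and 11.6 CPM in WT and 11.0, 12.3 and 15.1 CPM in KO. On day 7, 6 of 7 KO libraries lay above every WT library, and the ranges overlapped through d7_KO_423. The log2 fold change of KO against WT on day 7 was 0.31 (SE 0.11, unadjusted p 0.0132), which did not pass adjustment over all genes (edgeR adjusted p 0.315). It was -0.31 on day 0 and -0.091 on day 3, with edgeR adjusted p of 0.6 and 0.787.

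C2, which joins with C4 in the classical and lectin pathway convertase, was a low abundance gene with 2 to 219 counts per library. The WT day 0 libraries had 0.587, 1.05, 1.06 and 1.82 CPM and the KO day 0 libraries 0.222, 1.03, 1.11, 1.15 and 1.65 CPM. On day 3 the lowest, median and highest were 1.09, 1.68 and 1.89 CPM in WT and 0.910, 1.32 and 2.08 CPM in KO. On day 7 they were 1.48, 2.13 and 3.03 CPM in WT and 1.87, 3.04 and 4.26 CPM in KO. On day 7, 4 of 7 KO libraries lay above all WT libraries. The log2 fold change of KO against WT was 0.52 (SE 0.20, unadjusted p 0.0214, edgeR adjusted p 0.339) on day 7.

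C4b, the mouse gene for complement C4, had the widest range. It had 0 to 33 counts per library on day 0. The WT day 0 libraries had 0.140, 0.422, 0.587 and 1.5 CPM and the KO day 0 libraries 0, 0.115, 0.548, 0.910 and 1.02 CPM, and it was below the expression filter of that comparison. On day 3 the lowest, median and highest were 0.166, 0.816 and 1.39 CPM in WT and 0.0705, 0.703 and 2.69 CPM in KO, with the library labelled d3_KO_345 highest. On day 7 the WT libraries had 0.906, 1.08, 1.75, 3.67, 3.90, 3.98 and 8.36 CPM. The KO libraries of that day had 2.01, 2.87, 3.09, 5.21, 18.3, 24.3 and 37.8 CPM. The KO group thus fell into 4 animals within the WT range and 3 animals (d7_KO_366, d7_KO_367 and d7_KO_368) above it. These 3 have consecutive animal numbers, all lower than those of the other 4 KO animals. Their Hk2 levels were also lower, at 56.6 to 105 CPM against 128 to 260 CPM. The WT libraries d7_WT_361 and d7_WT_370, on either side of them in number, had 1.75 and 3.90 CPM of C4b. Whether the 3 animals shared a litter, cage or cohort is not known, and its part in the KO against WT difference was not tested. The log2 fold change of KO against WT on day 7 was 1.98 (SE 0.69, unadjusted p 0.0112), which did not pass adjustment (edgeR adjusted p 0.309). It was 0.33 (SE 0.59, edgeR adjusted p 0.868) on day 3 and -0.071 (edgeR adjusted p 0.985) when the library labelled d3_KO_345 was left out. Over both DSS days it was 1.18 (SE 0.50, edgeR adjusted p 0.179). With the immune score of each library (mean log2 CPM of 10 leukocyte genes) as a covariate, the day 3 value turned to -0.57 (SE 0.62), the day 7 value was 1.41 (SE 0.63, edgeR adjusted p 0.664) and that over both days 0.48 (SE 0.51, edgeR adjusted p 0.806).

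Days 3 and 7 were compared within each genotype to follow the genes through DSS treatment, since these libraries share a series prefix. In WT, C4b and Cd55 were called higher on day 7. In KO, C4b, C2 and Cfb were called higher. The WT count was 2 of 6, where 3002 of 15541 genes were called (19.3%), 10.6% higher and 8.7% lower. The KO count was 3 of 6, where 3008 of 15568 genes were called (19.3%), 10.5% higher and 8.83% lower. The median log2 fold change of the 6 genes tested was 0.77 in WT and 0.77 in KO, beside 0.013 and -0.0067 over all genes tested.

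C4b rose in both genotypes, by 2.08 (SE 0.51, edgeR adjusted p 0.00935) in WT and by 3.71 (SE 0.77, edgeR adjusted p 0.00264) in KO on the log2 scale. In WT, 5 of 7 day 7 libraries lay above all day 3 libraries, and in KO 6 of 7 did. Without the library labelled d3_KO_345 the KO value was 4.13 (edgeR adjusted p 0.0017). C2 rose in KO by 1.20 (SE 0.21, edgeR adjusted p 0.000702), with 6 of 7 day 7 libraries above all day 3 libraries, and by 1.31 (edgeR adjusted p 0.000225) without that library. In WT the C2 value was 0.54 (SE 0.20, edgeR adjusted p 0.0678). The WT value passed with DESeq2 (adjusted p 0.0279), and with edgeR without d3_WT_381 (0.0478) or d7_WT_431 (0.0421). Cfb rose in KO by 0.36 (SE 0.10, edgeR adjusted p 0.0179, or 0.0254 when the library labelled d3_KO_345 was left out), and in WT its value was -0.022 (SE 0.12, edgeR adjusted p 0.923).

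The changes were also compared between genotypes directly. The interaction, the log2 change from day 3 to day 7 in KO minus that in WT, was 0.40 (SE 0.15, unadjusted p 0.0134) for Cfb, 0.67 (SE 0.28, unadjusted p 0.0244) for C2 and 1.65 (SE 0.93, unadjusted p 0.0882) for C4b. None passed adjustment (edgeR adjusted p 1.0 for all 6 genes after rounding). The interaction was called for 0 of 6 genes and for 0 of 16371 genes overall (0%), with 2 of 6 and 440 of 16371 at an unadjusted p under 0.05, and DESeq2 called 0 of the 7. Without the library labelled d3_KO_345 the C4b interaction was 2.05 (SE 0.94, unadjusted p 0.0376), again without passing adjustment. A call for Cfb and C2 in KO alone is therefore not shown to differ from WT.

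Cd55, the membrane regulator, was called higher from day 3 to day 7 in WT, from day 0 to day 3 in KO and from day 0 to day 7 in both. The WT day 0 libraries had 19.8, 28.8, 29.4 and 42.5 CPM and the KO day 0 libraries 18.5, 19.96, 24.3, 27.3 and 36.0 CPM. On day 3 the lowest, median and highest were 30.8, 37.5 and 49.2 CPM in WT and 39.6, 46.4 and 66.8 CPM in KO. On day 7 they were 40.6, 59.7 and 145 CPM in WT and 34.7, 63.3 and 145 CPM in KO, with d7_WT_393 and d7_KO_420 highest. Cd55 rose from day 3 to day 7 in WT by 1.00 on the log2 scale (SE 0.25, edgeR adjusted p 0.0108), with 6 of 7 day 7 libraries above all day 3 libraries. On day 7 the value of KO against WT was -0.14 (SE 0.33, edgeR adjusted p 0.869), or -0.44 (edgeR adjusted p 0.373) without d7_KO_420. In KO the change from day 3 was 0.47 (SE 0.24, edgeR adjusted p 0.209), or 0.18 (edgeR adjusted p 0.518) without d7_KO_420, and the interaction was -0.52 (SE 0.37, unadjusted p 0.17), or -0.81 (unadjusted p 0.0193, edgeR adjusted p 0.562) without that library. On day 3 all 8 KO libraries lay above the WT median, and 3 lay above all WT libraries. That difference was 0.37 (SE 0.14, unadjusted p 0.0146) and did not pass adjustment (edgeR adjusted p 0.623).

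Cfi, the soluble protease that inactivates C3 and C4 fragments, was barely detected, with 0 to 13 counts per library. It was below the expression filter in every comparison. The WT day 0 libraries had 0.117, 0.140, 0.182 and 0.261 CPM and the KO day 0 libraries 0.0914, 0.111, 0.182, 0.229 and 0.372 CPM. The day 7 libraries had 0.0358 to 0.117 CPM in WT and 0 to 0.107 CPM in KO, with d7_KO_420 and d7_KO_423 at 0. Summed over the libraries of a group, the unscaled level was 0.224 CPM (exact Poisson 95% interval 0.139 to 0.343) in WT day 0, 0.148 (0.108 to 0.198) in WT day 3 and 0.0687 (0.0425 to 0.105) in WT day 7. In KO it was 0.191 (0.102 to 0.326), 0.126 (0.0905 to 0.171) and 0.0453 (0.0253 to 0.0747). These intervals cover counting error only. With no filter on low counts, the fitted log2 change of day 7 against day 0 was -1.32 (SE 0.52, edgeR adjusted p 0.0481) in WT and -2.13 (SE 0.68, edgeR adjusted p 0.0179) in KO, and day 7 against day 3 did not pass in either genotype (0.124 and 0.104).

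Pigr stayed between 3188 and 6557 CPM in the 38 libraries. The WT day 0 libraries had 3568, 3651, 3766 and 5014 CPM and the KO day 0 libraries 3188, 3327, 3908, 4276 and 4366 CPM. On day 3 the lowest, median and highest were 3583, 5180 and 5597 CPM in WT and 3643, 4612 and 6557 CPM in KO. On day 7 they were 3943, 4601 and 5968 CPM in WT and 4284, 4425 and 5221 CPM in KO. All ranges overlapped. The log2 fold change of KO against WT was -0.038 (SE 0.17) on day 0, -0.072 (SE 0.14) on day 3 and -0.049 (SE 0.11) on day 7, with edgeR adjusted p of 0.953, 0.886 and 0.862. From day 3 to day 7 it was -0.048 (SE 0.14) in WT and -0.041 (SE 0.12) in KO, and no comparison with day 0 called Pigr.

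Comparisons with day 0 are given as values, since day and library series coincide there. On day 7 against day 0, 4 of 6 genes were called in WT, where 9919 of 17428 genes were called (56.9%; 27.8% higher). They were C3, C4b (2.27, SE 0.69, edgeR adjusted p 0.0128), Cd55 (1.28, SE 0.35, edgeR adjusted p 0.00711) and C2 (0.86, SE 0.31, edgeR adjusted p 0.0293), all higher. The C2 call was lost without any 1 of d7_WT_361, d7_WT_419, d0_WT_31, d0_WT_43 or d0_WT_46 (edgeR adjusted p 0.0512 to 0.0827). In KO, 5 of 6 were called, all higher, where 8938 of 16367 genes were called (54.6%; 27.3% higher). Beside C3 these were C4b (4.55, SE 0.98, edgeR adjusted p 0.00147), C2 (1.46, SE 0.33, edgeR adjusted p 0.00204), Cd55 (1.36, SE 0.32, edgeR adjusted p 0.00254) and Cfb (0.49, SE 0.14, edgeR adjusted p 0.00777). On day 3 against day 0, 0 of 6 were called in WT (7893 of 17152 genes called, 46%; 20.4% higher and 25.6% lower), with 0 of 6 at an unadjusted p under 0.05 and 0 of 7 by DESeq2. In KO 1 of 6 was called (7409 of 16010 genes called, 46.3%; 22.6% higher and 23.7% lower). It was Cd55 at 0.88 (SE 0.18, edgeR adjusted p 0.000939), or 0.82 (edgeR adjusted p 0.00158) when the library labelled d3_KO_345 was left out.

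Markers of other cell types also moved between days 3 and 7. All 7 neutrophil markers were called higher in both genotypes, and their summed level was 8.05 to 45.3 CPM in WT day 3, 13.9 to 149 CPM in KO day 3, 146 to 1040 CPM in WT day 7 and 120 to 1730 CPM in KO day 7. Only 2 of the 7 passed the expression filter in KO against WT on day 3. The others entered the test through their day 7 levels, so that the count of calls is partly set by the filter. Of 8 macrophage markers, 6 of 6 tested were called higher in WT and 6 of 8 in KO. Their summed level was 36.6 to 46.2 CPM in WT day 3, 33.8 to 147 CPM in KO day 3, 76.5 to 307 CPM in WT day 7 and 81.6 to 407 CPM in KO day 7. Of 8 fibroblast markers, 1 was called higher in WT and 2 in KO, with summed levels of 7.32 to 116 CPM and 12.8 to 138 CPM on day 3 and 24.8 to 178 CPM and 35.3 to 302 CPM on day 7. No marker of these 3 lists was at 0 in all libraries of a day 3 or day 7 group. Of the 8 epithelial markers, 0 were called in WT by edgeR (2 at an unadjusted p under 0.05, and 1 higher by DESeq2) and 1 was called lower in KO by edgeR and by DESeq2, with 0 called by edgeR when the library labelled d3_KO_345 was left out (1 of 8 at an unadjusted p under 0.05). The part of other cell types in the day 7 levels of C4b, C3, C2 and Cd55 was not tested.

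Over the 14 day 7 libraries, 70 pairs of 1 gene and 1 marker score (mean log2 CPM over a marker list) were correlated, with p-values from 100000 permutations adjusted over the 70. One pair passed, C4b with the macrophage score (Pearson r 0.811, p 0.00041, adjusted 0.0287; Spearman rho 0.793, p 0.00111, adjusted 0.0388). Without the libraries farthest from the median score, d7_WT_386 and d7_WT_393, r was 0.71 and no longer passed (adjusted p 0.116 by permutation), so that the relation rests in part on them. Within genotype, r was 0.895 over 7 WT libraries (exact permutation p 0.0107, adjusted 0.375 over 140 pairs) and 0.730 over 7 KO libraries (exact permutation p 0.0716, adjusted 0.681). None of the 140 pairs within genotype passed. C3 had r of 0.736 with the fibroblast score and 0.713 with the macrophage score over the 14 libraries, both with an adjusted p of 0.0700 by permutation. Its Spearman rho was 0.868 with the fibroblast score (adjusted p 0.0091 by permutation) and 0.705 with the macrophage score (adjusted 0.147). Of the 3 KO libraries with the most C4b, d7_KO_368 had the highest macrophage score (4.64) of the 14, d7_KO_366 had 4.07 and d7_KO_367, with the most C4b, had 3.48. The WT libraries d7_WT_356 and d7_WT_419, with 8.36 and 3.67 CPM of C4b, had scores of 3.88 and 3.57.

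**Figure D4:**
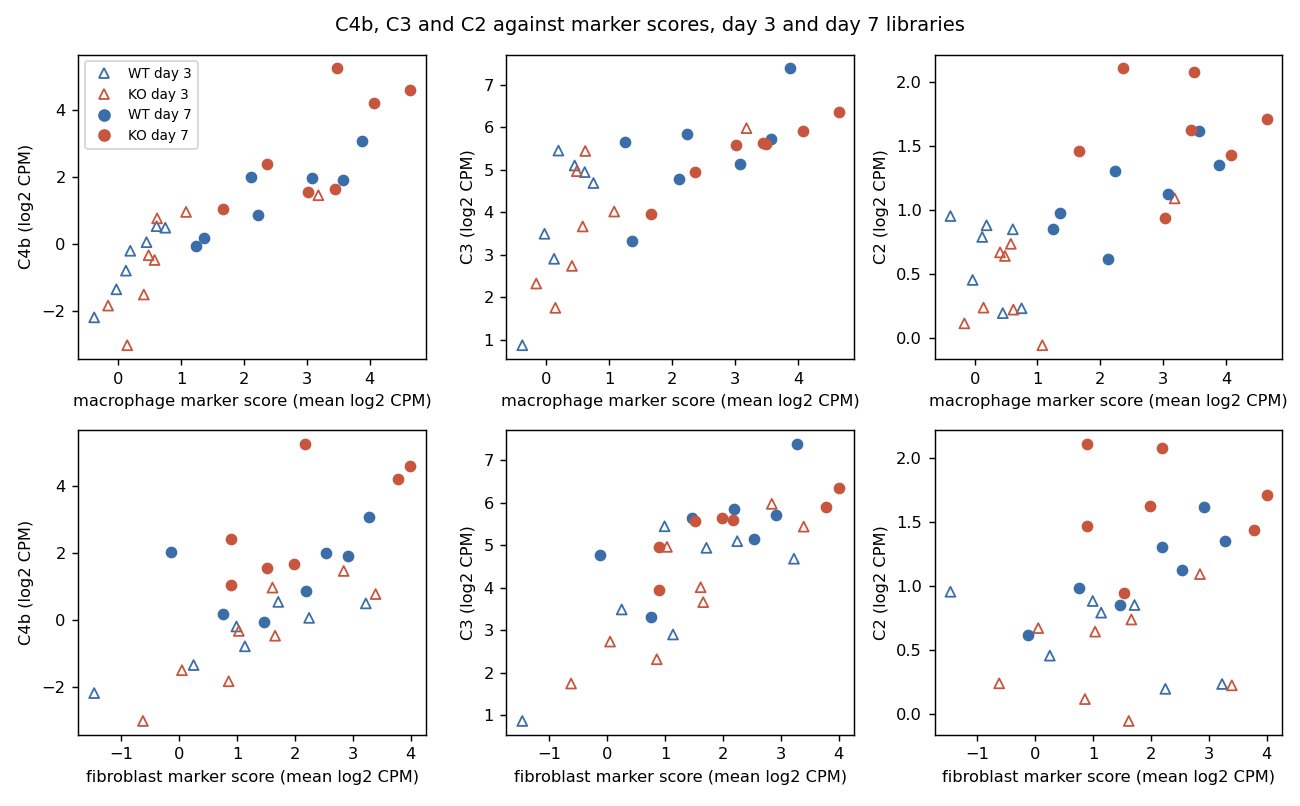
Log2 CPM of C4b, C3 and C2 against the macrophage and fibroblast marker scores in day 3 (open triangles) and day 7 (filled circles) libraries, WT in blue and KO in red. In the macrophage panels day 7 libraries lie to the right of the day 3 libraries other than the one labelled d3_KO_345, and the 3 KO libraries highest in C4b (18.3 to 37.8 CPM) stand above the rest.

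As a description over the 29 day 3 and day 7 libraries, the genes with the most similar pattern of log2 CPM were listed for each gene among those with a mean log2 CPM of at least 2. For C4b they were the fibronectin gene Fn1 (r 0.879), the macrophage lysozyme gene Lyz2 (r 0.879) and the extracellular matrix gene Ecm1 (r 0.848). For C3 they were the collagen gene Col3a1 (r 0.782), Fn1 (r 0.782) and the collagen gene Col1a2 (r 0.749). For C2 they were Xdh (xanthine dehydrogenase; r 0.888), Tap1, which transports peptides for antigen presentation (r 0.873), and Ube2l6, an enzyme of the ISG15 pathway (r 0.868). For Cd55 they were the glucose transporter gene Slc2a1 (r 0.849), Zwint (r 0.845) and C130074G19Rik (r 0.844). For Cfb they were Plcb3, Tbc1d14 and Slc38a7 (r 0.756 to 0.807), for Pigr Kat6b, Agbl5 and Crtc1 (r 0.794 to 0.808), and for Cfi Strip2, Ubxn10 and Slc46a1 (r 0.654 to 0.667). The libraries are shared by all pairs, so these values carry no test. Lyz2 is also on the macrophage list above, and Col3a1 and Col1a2 are on the fibroblast list.

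Among the genes themselves, C3 and C4b were the closest pair over the 29 libraries (r 0.778), with 0.877 over the 15 day 3 and 0.494 over the 14 day 7 libraries. C2 and C4b had r of 0.689 over the 29 libraries, 0.0404 on day 3 and 0.592 on day 7. Pigr had r between -0.357 and 0.444 with the other 6 genes over the 29 libraries. Within days its values reached -0.711 with Cd55 and 0.653 with Cfb on day 3 and 0.619 with C3 on day 7. These values are descriptions over the same libraries.

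Other complement genes were read from fixed lists to place the 7 genes in their cascade, again for day 7 against day 3. The KO values below kept their calls without the library labelled d3_KO_345, except where stated. Of 17 genes that start the classical and lectin pathways, 7 were tested, and 3 rose from day 3 to day 7 in each genotype, with none lower. They were C1qa, C1qb and C1qc, the subunits of the recognition molecule C1q. C1qb rose by 2.71 (SE 0.27, edgeR adjusted p 4.2e-05) in WT and by 2.83 (SE 0.47, edgeR adjusted p 0.000539) in KO. Its range was 0.721 to 1.75 CPM in WT day 3 and 4.08 to 11.5 CPM in WT day 7. The proteases C1ra and C1s1 did not pass (C1ra -0.52 in WT and -0.36 in KO, C1s1 0.15 and 0.32). Cfp, which stabilises the alternative pathway convertase, rose by 1.44 (edgeR adjusted p 0.0047) in WT and 1.83 (edgeR adjusted p 0.00694) in KO, and C4a, the copy of C4b, had -0.24 and 0.063 and did not pass.

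Of 7 terminal pathway genes, 4 were tested and 1 fell in each genotype. It was Hc, the gene for C5, which fell by 1.03 (SE 0.26, edgeR adjusted p 0.0113) in WT and by 1.04 (SE 0.23, edgeR adjusted p 0.00422) in KO. Of 9 soluble regulators, 6 were tested. In WT 1 fell with none higher, and in KO 1 fell and 1 rose. C4bp, a cofactor for factor I, fell by 1.26 (SE 0.19, edgeR adjusted p 0.000393) in WT and by 0.89 (SE 0.28, edgeR adjusted p 0.0346) in KO.

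Of 8 membrane regulators beside Cd55, 4 were tested in each genotype between days 3 and 7. The edgeR test called 0 of 4 in both, with 0 of 4 in WT and 1 of 4 in KO at an unadjusted p under 0.05, and DESeq2 called 1 of 7 higher in each. Cr1l, the rodent regulator known as Crry, was the most abundant of them, with 59.7 to 87.4 CPM in WT day 3, 63.3 to 77.4 in KO day 3, 65.2 to 95.6 in WT day 7 and 64.0 to 80.2 in KO day 7. On day 7, KO against WT, 5 of the 8 were tested and neither edgeR nor DESeq2 called any. At an unadjusted p under 0.05, where 2017 of 15584 genes (12.9%) lay, 4 of these 5 had negative values: Cr1l -0.24 (SE 0.090), Cd46 -0.66 (SE 0.28), Cd59a, which blocks the membrane attack complex, -1.12 (SE 0.46) and Susd4 -0.85 (SE 0.29), with edgeR adjusted p of 0.306 to 0.361. Cd46, Cd59a and Susd4 were low, with mean levels in WT day 7 of 1.84 ± 0.670, 0.426 ± 0.234 and 0.382 ± 0.161 CPM (SD, n = 7).

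Of 8 complement receptors, all 6 tested in WT and all 7 tested in KO were called higher on day 7 (6 of 6 tested in KO without the library labelled d3_KO_345). In KO against WT on day 3, only 4 of the 8 passed the expression filter. Some receptors thus entered the test through their day 7 levels, so that the direction of their calls is partly set by the filter. C5ar1, the receptor for the C5 fragment C5a, rose by 5.71 (SE 0.74, edgeR adjusted p 0.000129) in WT and by 2.89 (SE 0.98, edgeR adjusted p 0.049) in KO, or 5.78 (SE 0.63, edgeR adjusted p 1.7e-05) when the library labelled d3_KO_345 was left out. In WT it went from 0 to 0.257 CPM on day 3 to 0.938 to 15.2 CPM on day 7. C3ar1, the receptor for the C3 fragment C3a, rose by 3.23 (SE 0.50, edgeR adjusted p 0.000408) in WT and by 2.79 (SE 0.81, edgeR adjusted p 0.0232) in KO, or 4.38 (SE 0.65, edgeR adjusted p 0.000191) without that library. These receptors, and the integrin subunits Itgam, Itgax and Itgb2 on the same list, are known from myeloid leukocytes, whose markers moved in the same libraries as given above. The medians of the list were 3.12 in WT and 2.80 in KO, beside 0.013 and -0.0067 over all genes.

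The cargo and partners of Pigr were read the same way. Of 15 genes of antibody transport and IgA production, 12 were tested, and from day 3 to day 7, 7 rose in WT with none lower, and 5 rose and 1 fell in KO (2 fell without the library labelled d3_KO_345). The shares over all genes tested were 10.6% higher and 8.7% lower in WT, and 10.5% and 8.83% in KO. Igha, the IgA heavy chain, rose by 3.07 (SE 0.40, edgeR adjusted p 0.000136), Jchain, which links IgA into polymers, by 3.16 (SE 0.43, edgeR adjusted p 0.00017), and Igkc, the kappa light chain, by 3.19 (SE 0.36, edgeR adjusted p 6.1e-05). In KO the values were 0.77 for Igha (edgeR adjusted p 0.172), 0.55 for Jchain (edgeR adjusted p 0.381) and 1.08 for Igkc (edgeR adjusted p 0.0664). The lowest, median and highest Igha levels on day 7 were 6.35, 15.2 and 45.5 CPM in WT and 3.98, 6.07 and 13.1 CPM in KO, and those of Jchain were 1.25, 4.53 and 8.45 CPM and 0.729, 1.35 and 2.83 CPM.

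The difference between genotypes in these antibody genes was tested directly. On day 7 the log2 fold change of KO against WT was -1.43 (SE 0.39, unadjusted p 0.00206) for Igha, -1.54 (SE 0.35, unadjusted p 0.000489) for Jchain and -1.26 (SE 0.33, unadjusted p 0.00149) for Igkc, each with an edgeR adjusted p of 0.291. DESeq2 called 3 of the 12 genes of the list, all lower in KO, where it called 99 of 15915 genes, 57 of them lower. The edgeR test called 0 of 12, with 7 of 12 at an unadjusted p under 0.05, where 2017 of 15584 genes (12.9%) lay. On day 0 and day 3 the values had the other sign, with 1.18 and 0.86 for Igha and 1.67 and 1.06 for Jchain, and none passed adjustment (edgeR adjusted p 0.343 to 0.623). The interaction was -2.29 (SE 0.56, unadjusted p 0.00034) for Igha, -2.60 (SE 0.60, unadjusted p 0.000164) for Jchain and -2.10 (SE 0.55, unadjusted p 0.000655) for Igkc, and none passed adjustment (edgeR adjusted p 1.0 after rounding). Without the library labelled d3_KO_345 the interaction was -2.29 for Igha, -2.56 for Jchain and -2.13 for Igkc. Ighm, the IgM heavy chain, rose in both genotypes, by 1.91 (edgeR adjusted p 0.000573) in WT and by 1.5 (edgeR adjusted p 0.000118) in KO. Plasma cells make these transcripts, and the part of B cells in those of Ighm and Igkc was not tested. The summed level of 4 B cell markers was 0.386 to 1.41 CPM in WT day 3 and 1.41 to 7.58 CPM in WT day 7. In KO it was 0.414 to 2.04 CPM on day 3 and 1.21 to 11.6 CPM on day 7. The 7 plasma cell markers, which include Igha and Jchain, had a score (mean log2 CPM) with a lowest, median and highest value of 1.42, 2.15 and 2.57 in WT day 7 and 1.304, 1.71 and 1.95 in KO day 7. Between genotypes on day 7 edgeR called 0 of 5 (2 at an unadjusted p under 0.05) and DESeq2 called 2 of 6 lower in KO. Of these markers, 2 of 5 tested were called higher from day 3 to day 7 in WT and 0 of 5 in KO, where 1 of 5 was at an unadjusted p under 0.05 and DESeq2 called 0 of 6.

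Of the other genes on that list, B2m, the light chain of the neonatal Fc receptor and of class I molecules, rose by 0.69 (edgeR adjusted p 0.016) in WT and by 1.07 (edgeR adjusted p 6.6e-05) in KO. Fcgrt, the heavy chain of the neonatal Fc receptor, which carries IgG across epithelium, rose in KO (0.55, edgeR adjusted p 0.00108) and had 0.39 (edgeR adjusted p 0.0731) in WT. Tnfsf13b, the B cell survival factor BAFF, rose by 0.95 (edgeR adjusted p 0.0088) in WT and 1.31 (edgeR adjusted p 7.7e-05) in KO. Ccl28, the epithelial chemokine that attracts IgA plasma cells, fell in KO (-0.41, edgeR adjusted p 0.0421) and had -0.21 (edgeR adjusted p 0.363) in WT.

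**Figure D5:**
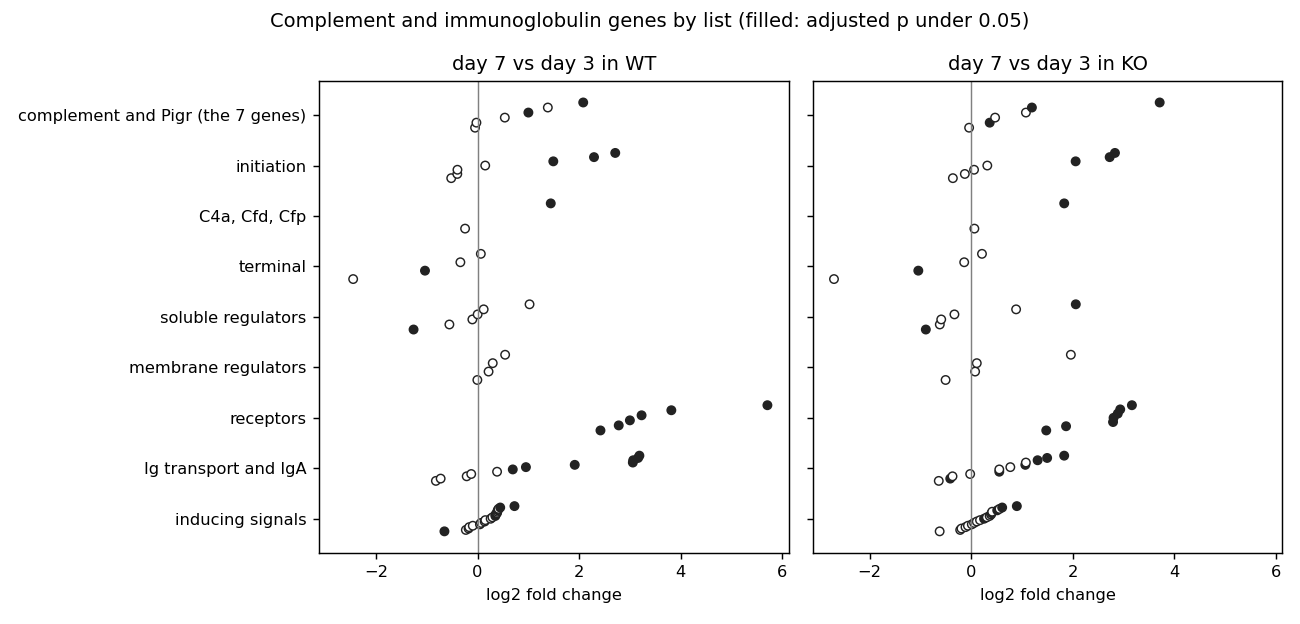
Log2 fold change of day 7 against day 3 for each tested gene of the fixed lists, in WT and KO, with filled points for an edgeR adjusted p under 0.05. All tested complement receptors are filled and to the right of 0, and the 4 membrane regulators of each panel are open. Some of the receptors passed the expression filter through their day 7 levels.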

How the data were processed

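RNA from isolated intestinal epithelial cells of 38 mice was sequenced with paired 50-base reads in 2 lanes per library. The deposited values were counts of reads per gene, made with featureCounts 1.6.2 per the file headers, without regard to strand. The submitters' processing notes name featureCounts 1.5.2, Trim Galore, STAR and GRCm38. The series text names colon tissue where the labels name isolated epithelial cells. Lanes were summed (lane log correlation of at least 0.989), which gave library totals of 10.5 to 60.6 M counts (median 43.2 M).

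Groups came from the labels. Counts were tested with edgeR 4.0.16 in R 4.3.3 (TMM normalization, filterByExpr with a minimum count of 10, quasi-likelihood F test on the groups compared only), with Benjamini-Hochberg adjustment over all genes tested and calls at an adjusted p under 0.05. The interaction and the comparison over DSS days used the 4 groups of days 3 and 7. SE is the log2 fold change divided by the square root of F. CPM were scaled by TMM over all 38 libraries, and log2 CPM used a prior count of 2. The members and gene lists were chosen with earlier results of these data known. By rule, the text may name the 7 genes, Hk2, any gene of the complement, antibody and upstream signal lists, each list counted whole, and for each of the 7 the 3 genes with the highest Pearson r. On simulated counts at the depth of these libraries, 2-fold changes were called for 95% of changed genes in KO against WT on day 0 (14944 genes), 92% on day 7 (15584 genes) and 96% in WT day 7 against day 3 (15541 genes), and 4-fold changes for 100%, 99% and 99%. The simulated spread was that of the reference group alone (WT, or WT day 3), and no change was planted in the least abundant genes. In the real day 7 comparison edgeR called no gene lower in KO, Hk2 included (log2 fold change -1.25). On day 0 the call of Hk2 was lost in most fits with a library left out. These shares therefore do not carry over to the real comparisons.

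Alternatives were DESeq2 size factors, the DESeq2 1.42.0 Wald test, no filter, a filter on mean CPM at 1, only lane 1, all libraries in 1 fit, an immune or small intestine marker score as a covariate, and leaving out each library. For the lists, DESeq2 and the fit without the library labelled d3_KO_345 were added after the data were seen, as were a log2 scale for libraries far from the others and the level of C4b without d7_WT_356. Promoters came from RefSeq (GRCm38.p6), with entries for 3 of the 7 genes. Results on some genes of the lists are not reported here.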

Additional observations from a re-analysis of the deposited data

Results flagged for a closer look

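In 4 of 42 groups (7 genes in 6 groups of libraries) a single library lay far from the others by Dixon's criterion. For normally distributed values chance meets it in about 1 in 20 groups. Whether CPM are so distributed was not tested, so that this rate may not hold here. C3 was at 167.1 CPM in d7_WT_356, where the next WT day 7 library had 57.7 CPM, a gap of 0.696 of the group's range. C4b was at 8.36 CPM in the same library, where the next had 3.98 CPM (0.587 of the range). Cd55 was at 145.46 CPM in d7_KO_420, where the next KO day 7 library had 76.1 CPM (0.626 of the range). Pigr was at 5014.5 CPM in d0_WT_31, where the next WT day 0 library had 3766 CPM (0.863 of the range). These gaps are on the CPM scale. On the log2 CPM scale, chosen after the data were seen, Pigr stayed past the criterion (0.841), whereas C3 (0.378), C4b (0.338) and Cd55 (0.452) did not. Only these 4 were put on that scale, so libraries far from the others on it alone were not looked for. For example, C2 in d0_KO_32 was at -1.87 log2 CPM, where the other KO day 0 libraries had 0.116 to 0.763. In d7_WT_356 the summed neutrophil markers reached 1040 CPM and the summed fibroblast markers 178 CPM, the highest of the WT day 7 group, and in d7_KO_420 the neutrophil markers reached 1730 CPM, the highest of the KO day 7 group. Their part in these values was not tested.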

How the results depend on the processing

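No paired analysis was possible because the groups share no animal numbers and the libraries are not marked by litter or cage. Any likeness between littermates or cage mates was thus not modelled. Of 403 values of the 7 genes under alternatives other than leaving out a library, 3 lost and 1 gained a call and 6 reversed, and of 1023 with 1 library left out, 8 lost and 3 gained a call and 40 reversed. Reversals were all of values that were not called. KO against WT on day 0, with the small intestine score added to the fit, was -0.14 for C3 and 0.11 for Pigr. With the immune score, day 3 was -0.87 for C3, -0.57 for C4b and 0.0022 for Pigr, and Cfb in WT day 7 against day 3 was 0.00035 with all libraries in 1 fit. The cause was not tested.

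With 1 library left out, KO against WT ranged on day 0 from -0.29 to 0.23 for C2 and -0.086 to 0.091 for Pigr, on day 3 from -0.39 to 0.28 for C3 and -0.071 to 0.52 for C4b, and on day 7 from -0.45 to 0.30 for C3, -0.44 to 0.090 for Cd55 and -0.090 to 0.0085 for Pigr. Over DSS days it ranged from -0.33 to 0.15 for C3 and -0.0063 to 0.23 for Cd55. Day 7 against day 3 ranged from -0.066 to 0.031 for Cfb in WT, and in KO from -0.088 to 0.039 for Pigr and -0.31 to 0.40 for Hk2. Against day 0, WT day 3 ranged from -0.22 to 0.086 for Cfb and -0.11 to 0.96 for C4b, KO day 3 from -0.069 to 0.78 for C3, and WT day 7 from -0.26 to 0.061 for Cfb and -0.32 to 0.048 for Hk2. The interaction ranged from -0.55 to 0.27 for C3 and -0.026 to 0.11 for Pigr.

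The calls of day 7 against day 3 held in each of these fits: C4b 1.68 to 2.27 and Cd55 0.77 to 1.11 in WT, and Cfb 0.32 to 0.40, C2 1.10 to 1.31 and C4b 3.19 to 4.13 in KO. The count of genes called in WT day 3 against day 0 among the 7 was 0 to 1. C2 in WT day 7 against day 0 was not called with the mean CPM filter (adjusted p 0.05002) or lane 1 alone (0.1003), nor C3 in KO with all libraries in 1 fit (0.0676). Of the marker pairs, 2 passed by Spearman's rho, C4b with the macrophage and C3 with the fibroblast score, beside 1 by Pearson's r. Without the libraries farthest from the median score 2 passed, and C4b with the macrophage score was not among them. They were C3 with the immune score (r 0.853, adjusted p 0.0175 by permutation) and with the neutrophil score (r 0.827, adjusted p 0.0472 by permutation). With all libraries r was 0.538 and 0.637, and neither passed. Over all genes, KO against WT called 5 genes on day 0 beside 165 with DESeq2 and 52 with no filter, 1 on day 7 beside 99 with DESeq2 and 38 with all libraries in 1 fit, and 2 over DSS days beside 545 with DESeq2. Depth limits Cfi (0 to 13 counts) and C4b on day 0 (0 to 33).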

Other observations

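Cytokine receptors and transcription factors known to act upstream of complement genes and Pigr in epithelial cells were read as a list of 19, all of which were tested. From day 3 to day 7, 5 rose and 1 fell in WT, and 5 rose with none lower in KO (6 rose and 1 fell in KO when the library labelled d3_KO_345 was left out, and likewise with DESeq2), with median log2 fold changes of 0.26 and 0.25. Of all genes tested, edgeR called 10.6% higher and 8.7% lower in WT, and 10.5% and 8.83% in KO. Nfkbiz, an NF-kB cofactor, rose in both genotypes (0.73 in WT and 0.61 in KO), as did Myd88, an adaptor of Toll-like receptors (0.35 and 0.40). Irf1, an interferon-induced factor, rose in KO (0.51, edgeR adjusted p 0.0152) and had 0.29 in WT. Cebpd fell in WT (-0.65, edgeR adjusted p 0.0275) and had -0.62 (edgeR adjusted p 0.0704) in KO. Between genotypes on day 7, edgeR and DESeq2 called 0 of 19, with 3 of 19 at an unadjusted p under 0.05 in each, and the interaction was called for 0 of 19 by both, with 0 of 19 at an unadjusted p under 0.05. By edgeR, 12.9% of all genes tested lay under that p between genotypes on day 7, and 2.69% in the interaction.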
